A study of Homo sapiens with 28 samples.

Results

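EZH2, EZH1, EED, SUZ12, JARID2, AEBP2, PHF19 and MTF2 encode subunits of Polycomb repressive complex 2 (PRC2), and KDM6A and KDM6B encode the enzymes that remove the mark PRC2 writes. These 10 genes were taken by symbol from the 60483 genes of the deposited count table. All 10 were found and all 10 passed the filter on low counts in both cell lines. Their levels were compared between lung adenocarcinoma cells given an EZH2 inhibitor and cells given TGF-β1.

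PRC2 places methyl groups on lysine 27 of histone H3, and the trimethylated form, H3K27me3, marks silenced genes. EZH2 or its paralog EZH1 is the catalytic subunit, and EED and SUZ12 are needed for the complex to hold together and work. JARID2 and AEBP2 belong to the PRC2.2 form, while the Polycomb-like proteins PHF19 and MTF2 belong to the PRC2.1 form. KDM6A (UTX) and KDM6B (JMJD3) are demethylases of H3K27, and KDM6B is known as an inducible gene. GSK126 is a small molecule that blocks the catalytic site of EZH2. TGF-β1 is a cytokine that drives epithelial to mesenchymal transition in epithelial cells.

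EZH2 is known as a target of E2F, the transcription factor family that drives genes of the cell cycle, so the start sites of the members were searched for E2F letters. The windows, from RefSeq on build GRCh38.p14, run from 250 bases before to 50 bases after each annotated start and are 300 bases long. EZH2, PHF19, JARID2 and KDM6B have 2 windows each, of which 1 is shown, for EZH2 and PHF19 the 1 with E2F letters. Shown are EZH2 and PHF19, which were lower under TGF-β1 in A549, beside JARID2 and KDM6B, which were higher under TGF-β1 in both lines. Each is written 5′ to 3′ on the strand of the gene, and capitals mark a match to the E2F letters TTTCCCGC, TTTCGCGC, TTTGCCGC or TTTGGCGC or their reverse complements.
EZH2 (chr7:148884242-148884541, minus strand): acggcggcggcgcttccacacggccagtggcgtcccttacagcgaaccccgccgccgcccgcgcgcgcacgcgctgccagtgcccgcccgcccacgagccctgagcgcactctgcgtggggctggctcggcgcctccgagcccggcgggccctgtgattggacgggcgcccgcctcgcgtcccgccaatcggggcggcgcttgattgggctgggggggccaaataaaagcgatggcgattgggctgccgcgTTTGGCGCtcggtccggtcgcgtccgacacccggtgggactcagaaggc
PHF19 (chr9:120877139-120877438, minus strand): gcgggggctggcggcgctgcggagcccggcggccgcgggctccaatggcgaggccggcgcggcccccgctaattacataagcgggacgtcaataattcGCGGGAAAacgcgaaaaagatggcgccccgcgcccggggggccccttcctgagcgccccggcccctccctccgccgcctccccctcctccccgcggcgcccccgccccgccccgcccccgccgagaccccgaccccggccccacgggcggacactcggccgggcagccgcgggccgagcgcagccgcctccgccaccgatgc
JARID2 (chr6:15248605-15248904, plus strand): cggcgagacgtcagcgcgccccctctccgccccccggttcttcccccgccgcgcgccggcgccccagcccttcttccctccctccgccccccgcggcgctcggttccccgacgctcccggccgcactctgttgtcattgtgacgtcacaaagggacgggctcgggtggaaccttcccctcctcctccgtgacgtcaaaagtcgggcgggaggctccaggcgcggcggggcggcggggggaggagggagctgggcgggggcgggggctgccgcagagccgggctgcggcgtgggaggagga
KDM6B (chr17:7839667-7839966, plus strand): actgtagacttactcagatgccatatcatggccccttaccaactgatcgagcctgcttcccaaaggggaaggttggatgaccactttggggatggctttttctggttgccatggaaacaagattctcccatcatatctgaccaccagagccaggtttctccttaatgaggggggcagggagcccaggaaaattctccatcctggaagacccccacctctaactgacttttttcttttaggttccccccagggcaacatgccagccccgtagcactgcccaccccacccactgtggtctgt

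The E2F letters stood in 6 of the 14 windows of the members and in 3.31% of all 35116 windows of the same length. EZH2 held them 2 bases into the transcript (position 2, counted from 1 at the start), and PHF19 held them 152 bases upstream. The other 4 members with a match were EZH1, SUZ12, AEBP2 and MTF2, and none of them passed the test between TGF-β1 and naive A549 cells. In H1944, EZH1 fell under TGF-β1, while EZH2 and PHF19 did not pass. KDM6A, with no match, also fell there. Whether the letters bear on the levels was not tested. No match stood in the windows of EED, KDM6A, JARID2 or KDM6B, where JARID2 and KDM6B have 2 windows each. The second windows of EZH2 and PHF19, not shown, also held no match. The palindrome bound by SMAD proteins, GTCTAGAC, stood in none of the members' windows and in 0.202% of all windows. The AP-1 letters TGANTCA stood in 1 window, that of KDM6A, against 7.71% of all windows. The CCAAT letters stood in 7 of the 14 windows against 34.6% of all. These motifs do not overlap one another by their letters, both strands were searched, and a match describes the sequence and not binding.

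RNA was measured in A549 and H1944, established lung adenocarcinoma lines that carried the MGT#1-mVenus fluorescent reporter in all groups, grown in RPMI medium with serum. Cells were given GSK126 at 5 µM or TGF-β1 at 5 ng/ml for 11 days and then sorted for high or low mVenus, and naive cells were left unsorted. A549 had 3 GSK126 low, 2 GSK126 high, 2 TGF-β1 low, 3 TGF-β1 high and 3 naive libraries, and H1944 had 3 of each, for 28 libraries in 10 groups. Sorting was applied to the treated cells alone, and in any comparison with naive cells the treatment and the sort cannot be told apart. The labels name no vehicle control. They also do not say whether replicate letters are separate cultures, so p-values measure the spread between these libraries, which may be technical.

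Total counts ran from 2013449 to 9550143 in A549 and from 1660148 to 13280592 in H1944. Of 6 epithelial markers, KRT8 and KRT18 were abundant in both lines, EPCAM was at most 15.6 CPM in A549 (CPM is the count scaled to the library's total) and KRT19 had a median of 0.495 CPM in H1944. The 4 leukocyte markers summed to at most 23.3 CPM and the 3 endothelial markers to at most 29.7 CPM in any library. The 4 fibroblast markers summed to as much as 4403 CPM in H1944, of which COL1A1 made up most. The A549 libraries TGF-β1 high B and naive A stood apart by a high sum of 397 silent olfactory receptor genes (323 and 206 CPM, against at most 127 in the other A549 libraries), and results were also computed without them. The members held between 37 and 1579 reads per library. In bulk RNA, fewer cells that express a gene and less RNA of it per cell cannot be told apart.

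**Figure D1:**
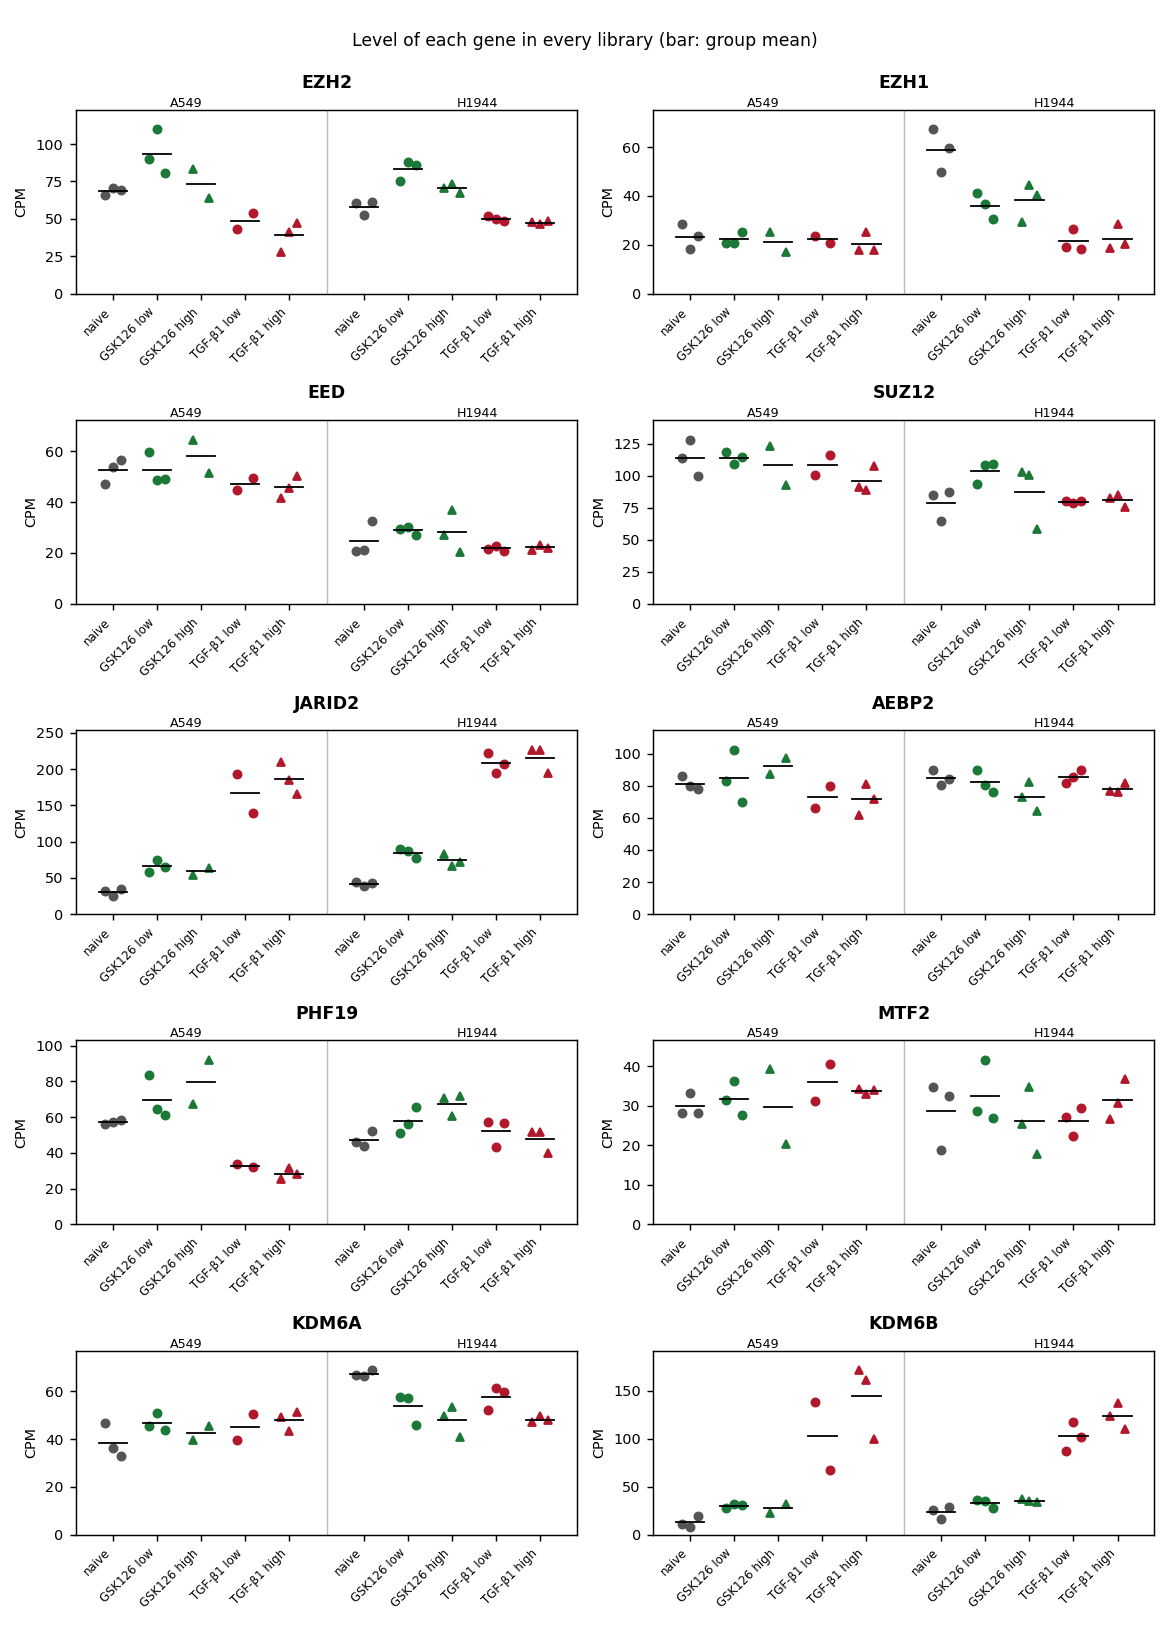
Each panel plots 1 gene in CPM (linear axis from 0) for all 28 libraries, with circles for naive and low-gate libraries, triangles for high-gate libraries and a bar for the group mean. JARID2 and KDM6B stand highest under TGF-β1 in both lines, and EZH1 stands highest in naive H1944 cells at 49.9 to 67.3 CPM.

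Under GSK126 compared with TGF-β1, EZH2 was higher and JARID2 and KDM6B were lower in both lines. PHF19 was higher in A549 and EZH1 in H1944. The difference between the lines passed its own test in all 35 alternatives for PHF19, and for EZH1 it passed (adjusted p = 0.0382) but held in 14 of 35 and was lost with the replicate letter as a block (adjusted p = 0.0632). The calls of EZH2, JARID2 and KDM6B between GSK126 and TGF-β1 held in all 20 alternatives run in A549 and all 21 in H1944. The core subunits EED and SUZ12 and the accessory subunit MTF2 passed the test in neither line. In A549, 4 of the 10 members passed the test, 2 higher and 2 lower, where 19.3% of all 19842 tested genes did, 11.4% higher and 7.93% lower. In H1944, 6 members passed, 2 higher and 4 lower, where 63.8% of 13621 genes did, 32.1% higher and 31.6% lower, so the H1944 count is near its background. The A549 filter let through more genes than the H1944 filter. Protein-coding genes with a mean of at least 5 CPM were similar in number (10950 in A549 and 11092 in H1944). The A549 share thus includes more genes of other kinds or lower levels. A share among genes at the members' levels was not computed. The test was edgeR's quasi-likelihood test with Benjamini-Hochberg adjustment over all genes, with both gates averaged. The members' median log2 fold change was 0.17 in A549 and -0.04 in H1944, beside -0.19 and 0.01 over all tested genes.

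EZH2, the main catalytic subunit, stood at 65.8, 70.6 and 69.2 CPM in the naive A549 libraries A, B and C. Under GSK126 it stood at 89.9, 109.8 and 80.7 CPM in the low gate and at 83.2 and 63.9 CPM in the high gate. Under TGF-β1 it stood at 43.5 and 54.1 CPM in the low gate and at 27.6, 41.5 and 47.5 CPM in the high gate. Every TGF-β1 library of A549 lay below every naive and every GSK126 library, while GSK126 and naive libraries overlapped. EZH2 was 2.02-fold higher under GSK126 than under TGF-β1 (log2 fold change 1.02 ± 0.19 SE, edgeR adjusted p = 7.59e-04). It fell by 0.83 ± 0.21 from naive to TGF-β1 on the log2 scale (adjusted p = 0.00827), and the difference between GSK126 and naive was 0.19 ± 0.22 (adjusted p = 0.71).

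The fall of EZH2 from naive to TGF-β1 in A549 did not pass without naive B (adjusted p = 0.0595) or in the low gate alone (adjusted p = 0.134). In H1944, EZH2 stood at 60.5, 52.4 and 61.4 CPM in naive cells. It stood at 75.3, 88.3 and 86.0 CPM in the GSK126 low gate and at 70.3, 73.6 and 67.4 CPM in the high gate. TGF-β1 libraries held 51.6, 49.996 and 48.6 CPM in the low gate and 47.6, 46.2 and 48.7 CPM in the high gate. The 3 treatments formed 3 separate ranges in H1944, with GSK126 highest and TGF-β1 lowest. Ranges in CPM rest on library totals, while folds come from edgeR fits with TMM scaling, so the 2 can differ. Mean CPM of EZH2 was 76.8 under GSK126 and 48.8 under TGF-β1, a wider gap than the fitted fold that follows. EZH2 was 1.38-fold higher under GSK126 than under TGF-β1 (log2 fold change 0.47 ± 0.08 SE, adjusted p = 8.79e-06). It was 1.21-fold higher under GSK126 than in naive cells (0.27 ± 0.09, adjusted p = 0.0209), and this call was lost without GSK126 low B, GSK126 low C, naive A or naive B (largest adjusted p = 0.153, without naive B) and in the high gate alone (adjusted p = 0.281). The difference between TGF-β1 and naive was -0.20 ± 0.10 (adjusted p = 0.0811).

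The summed CPM of 26 proliferation genes moved in the same order as EZH2. The sum was 5035 to 6010 in naive, 5628 to 6598 in GSK126 and 2892 to 3386 in TGF-β1 libraries of A549. In H1944 it was 3518 to 3704 in naive, 4385 to 4906 in GSK126 and 2265 to 2546 in TGF-β1 libraries. In both lines the TGF-β1 libraries had the lowest sums without overlap. The part of proliferation in the EZH2 level was not tested.

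EZH1, the paralog of EZH2 with the weaker catalytic activity, passed no test in A549 and was called in all 3 comparisons of H1944. It ranged from 17.1 to 28.4 CPM over all A549 libraries, and none of the 3 comparisons passed the test there (log2 fold changes of 0.13 ± 0.16 for GSK126 against TGF-β1, -0.15 ± 0.18 for GSK126 against naive and -0.28 ± 0.17 for TGF-β1 against naive). In naive H1944 cells it stood at 67.3, 49.9 and 59.5 CPM. Under GSK126 it stood at 41.1, 36.6 and 30.5 CPM in the low gate and at 29.5, 44.6 and 40.4 CPM in the high gate. After TGF-β1 the level was 19.2, 26.5 and 18.4 CPM in the low gate and 18.6, 28.3 and 20.4 CPM in the high gate. The 3 H1944 treatments did not overlap, with naive highest and TGF-β1 lowest. EZH1 fell 2.596-fold from naive to TGF-β1 (log2 fold change -1.38 ± 0.14 SE, adjusted p = 4.05e-10) and 1.74-fold from naive to GSK126 (-0.80 ± 0.13, adjusted p = 7.75e-06). It was 1.49-fold higher under GSK126 than under TGF-β1 (0.58 ± 0.13, adjusted p = 3.32e-04).

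The core subunits EED, which binds H3K27me3, and SUZ12, the scaffold, passed the test in no comparison of treatments. EED ranged from 41.6 to 64.5 CPM in A549 and from 20.2 to 37.0 CPM in H1944. Its log2 fold change between GSK126 and TGF-β1 was 0.34 ± 0.18 (adjusted p = 0.206) in A549 and 0.20 ± 0.14 (adjusted p = 0.217) in H1944. SUZ12 ranged from 88.9 to 128.0 CPM in A549 and from 58.7 to 108.7 CPM in H1944. The H1944 library GSK126 high C held the lowest value of SUZ12 (58.7 CPM), of EED (20.2 CPM) and of MTF2 (17.8 CPM) among the GSK126 libraries of that line. The log2 fold change of SUZ12 between GSK126 and TGF-β1 was 0.21 ± 0.18 (adjusted p = 0.441) in A549 and 0.08 ± 0.10 (adjusted p = 0.527) in H1944. EED shares 66 exonic bases with the microRNA gene MIR6755 on the same strand, and no other member shares exonic bases with another annotated gene.

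JARID2, a PRC2.2 subunit that helps recruit the complex, was the 1 member that separated all 3 treatments in both lines. In A549 it stood at 32.03, 25.3 and 34.5 CPM in naive cells. It stood at 57.5, 74.0 and 65.6 CPM in the GSK126 low gate and at 54.6 and 63.3 CPM in the high gate. Under TGF-β1 it stood at 193.1 and 139.9 CPM in the low gate and at 209.4, 184.7 and 165.3 CPM in the high gate. The lowest TGF-β1 library thus lay above the highest GSK126 library, and the lowest GSK126 library above the highest naive library. JARID2 rose 5.17-fold from naive to TGF-β1 (log2 fold change 2.37 ± 0.22 SE, adjusted p = 2.73e-07) and 1.94-fold from naive to GSK126 (0.96 ± 0.22, adjusted p = 0.00881). It was 2.66-fold lower under GSK126 than under TGF-β1 (-1.41 ± 0.18, adjusted p = 1.68e-05). The rise under GSK126 in A549 did not pass without GSK126 high B (adjusted p = 0.151) or with no filter on low counts (adjusted p = 0.112).

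In H1944, JARID2 stood at 44.1, 38.3 and 42.9 CPM in naive cells. It stood at 90.0, 87.3 and 77.4 CPM in the GSK126 low gate and at 83.3, 67.0 and 71.7 CPM in the high gate. TGF-β1 libraries held 222.4, 195.2 and 206.5 CPM in the low gate and 226.5, 226.1 and 194.0 CPM in the high gate. The ranges were again separate and in the same order as in A549. JARID2 rose 5.29-fold under TGF-β1 (2.40 ± 0.11, adjusted p = 8.19e-20) and 1.75-fold under GSK126 (0.81 ± 0.11, adjusted p = 1.43e-07) against naive cells. It was 3.02-fold lower under GSK126 than under TGF-β1 (-1.60 ± 0.08, adjusted p = 1.30e-18). Both treatments were set against the same naive libraries, so these rises share their controls.

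AEBP2, the zinc finger partner of JARID2 in PRC2.2, ranged from 61.9 to 102.3 CPM in A549 and from 64.0 to 90.0 CPM in H1944. In H1944 it was 1.20-fold lower under GSK126 than under TGF-β1 (log2 fold change -0.26 ± 0.08 SE, adjusted p = 0.00587) and 1.18-fold lower than in naive cells (-0.24 ± 0.09, adjusted p = 0.0389). Its H1944 ranges overlapped in both comparisons, and the first call was lost with no filter on low counts (adjusted p = 0.506) and in the low gate alone (adjusted p = 0.079). The second held in 12 of 21 alternatives, with adjusted p up to 0.258, and was lost without GSK126 high A, low B, low C or high C, naive A or naive C. In A549 the log2 fold change between GSK126 and TGF-β1 was 0.40 ± 0.16 (adjusted p = 0.102).

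PHF19, a Polycomb-like subunit that binds H3K36-methylated histone, was called in the same direction as EZH2 in A549. It stood at 56.1, 57.3 and 58.5 CPM in naive A549 cells. Under GSK126 it stood at 83.6, 64.6 and 60.9 CPM in the low gate and at 67.6 and 91.8 CPM in the high gate. After TGF-β1 the level was 34.0 and 31.8 CPM in the low gate and 25.3, 31.5 and 28.1 CPM in the high gate. All 5 TGF-β1 libraries lay below the naive libraries, and all 5 GSK126 libraries lay above them. PHF19 fell 2.13-fold from naive to TGF-β1 (log2 fold change -1.09 ± 0.19 SE, adjusted p = 3.55e-04), and the difference between GSK126 and naive was 0.31 ± 0.19 (adjusted p = 0.447). It was 2.63-fold higher under GSK126 than under TGF-β1 (1.40 ± 0.18, adjusted p = 1.12e-05).

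In H1944, PHF19 stood at 45.8, 44.1 and 52.4 CPM in naive cells. It stood at 51.4, 55.9 and 65.9 CPM in the GSK126 low gate and at 70.5, 60.5 and 71.7 CPM in the high gate. Under TGF-β1 it stood at 57.4, 43.4 and 56.4 CPM in the low gate and at 51.6, 51.6 and 39.7 CPM in the high gate. The H1944 treatments overlapped, and none of the 3 differences passed (0.13 ± 0.10 for GSK126 against TGF-β1, 0.25 ± 0.11 for GSK126 against naive and 0.12 ± 0.12 for TGF-β1 against naive). MTF2, the other Polycomb-like subunit listed, ranged from 20.2 to 40.7 CPM in A549 and from 17.8 to 41.6 CPM in H1944. Its log2 fold changes between GSK126 and TGF-β1 were -0.09 ± 0.20 in A549 and -0.16 ± 0.15 in H1944, with adjusted p of 0.766 and 0.35.

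KDM6A, the X-linked demethylase that also sits in the KMT2C and KMT2D complexes, ranged from 32.8 to 51.3 CPM in A549 and passed no test there. In H1944 it stood at 66.8, 66.5 and 68.8 CPM in naive cells. It stood at 57.7, 57.4 and 46.0 CPM in the GSK126 low gate and at 49.7, 53.6 and 40.9 CPM in the high gate. TGF-β1 libraries held 52.2, 61.4 and 59.95 CPM in the low gate and 47.1, 49.6 and 47.9 CPM in the high gate. All 12 treated H1944 libraries lay below all 3 naive ones. KDM6A fell 1.43-fold from naive to GSK126 (log2 fold change -0.52 ± 0.10 SE, adjusted p = 8.83e-05) and 1.23-fold from naive to TGF-β1 (-0.29 ± 0.10, adjusted p = 0.015). The second fall did not pass without naive C (adjusted p = 0.083) or in the low gate alone (adjusted p = 0.222). The difference between GSK126 and TGF-β1 (-0.23 ± 0.09, adjusted p = 0.0306) held in 11 of 21 alternatives, and was lost without any 1 of 7 libraries, GSK126 low C or high C or any TGF-β1 library other than low A (adjusted p up to 0.135).

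KDM6B, the inducible demethylase, showed the largest fold change of any member in A549. There it stood at 10.7, 8.0 and 19.7 CPM in naive cells. It stood at 27.4, 32.3 and 30.7 CPM in the GSK126 low gate and at 22.9 and 31.7 CPM in the high gate. After TGF-β1 the level was 138.2 and 67.7 CPM in the low gate and 171.4, 161.6 and 99.6 CPM in the high gate. The 3 treatments did not overlap, and the C libraries were the lowest of each TGF-β1 gate. KDM6B rose 8.44-fold from naive to TGF-β1 (log2 fold change 3.08 ± 0.34 SE, adjusted p = 1.65e-06) and was 3.96-fold lower under GSK126 than under TGF-β1 (-1.98 ± 0.27, adjusted p = 2.88e-05). The difference between GSK126 and naive, 1.09 ± 0.32, missed the threshold (adjusted p = 0.0507), and over 20 alternatives its adjusted p ran from 0.00491 to 0.318, with 9 past the test.

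In H1944, KDM6B stood at 25.2, 16.6 and 28.3 CPM in naive cells. It stood at 35.7, 34.6 and 28.2 CPM in the GSK126 low gate and at 36.7, 35.2 and 34.2 CPM in the high gate. Under TGF-β1 it stood at 87.4, 118.1 and 101.9 CPM in the low gate and at 123.7, 137.8 and 110.0 CPM in the high gate. Every TGF-β1 library lay above every other H1944 library, while GSK126 and naive libraries overlapped by the low-gate C library. KDM6B rose 4.72-fold under TGF-β1 (2.24 ± 0.13, adjusted p = 1.61e-16) against naive cells and was 3.71-fold lower under GSK126 than under TGF-β1 (-1.89 ± 0.10, adjusted p = 1.54e-17). It was 1.27-fold higher under GSK126 than in naive cells (0.34 ± 0.14, adjusted p = 0.0425). This last call was lost with the replicate letter as a block (adjusted p = 0.0613) and held in 7 of 21 alternatives, with adjusted p up to 0.305 without naive B. Leaving out 1 library kept it for GSK126 low C, GSK126 high C, TGF-β1 low B and naive C and lost it for the other 11.

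**Figure D2:**
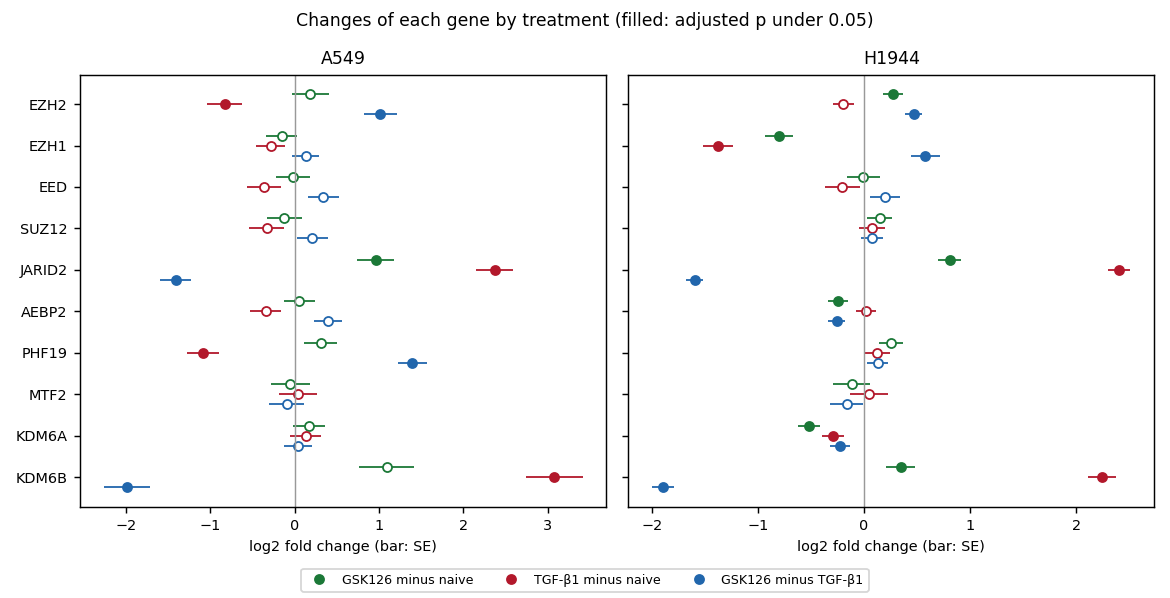
The x axis is the log2 fold change of each of the 10 genes with its SE, A549 on the left and H1944 on the right, for GSK126 minus naive (green), TGF-β1 minus naive (red) and GSK126 minus TGF-β1 (blue). Filled points passed the test at an adjusted p under 0.05, and JARID2 and KDM6B have the widest spread, with TGF-β1 values of 2.37 and 3.08 in A549 and 2.40 and 2.24 in H1944.

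Each treatment was also set against naive cells. JARID2 alone passed under GSK126 in A549 (1 of 10, higher), where 6.77% of all tested genes did, 3.57% higher and 3.20% lower. Under TGF-β1 in A549, JARID2 and KDM6B rose and EZH2 and PHF19 fell (4 of 10), where 19.0% of tested genes passed, 7.67% higher and 11.4% lower. In H1944 under GSK126, EZH2, JARID2 and KDM6B were higher and EZH1, AEBP2 and KDM6A lower (6 of 10), where 40.2% passed, 21.5% higher and 18.7% lower. In H1944 under TGF-β1, JARID2 and KDM6B rose and EZH1 and KDM6A fell (4 of 10), where 63.7% passed, 32.1% higher and 31.6% lower. In H1944 the GSK126 count thus lay above the share over all genes and the TGF-β1 count below it, and with 10 members neither was tested. The A549 and H1944 comparisons with naive cells share the naive libraries of their line.

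Members were also counted by whether the libraries of a pair of treatments overlapped at all in CPM, which has no TMM scaling. In A549, 4 members did not overlap between GSK126 and TGF-β1, where 19.8% of tested genes did not, 3 between GSK126 and naive (16.5%) and 4 between TGF-β1 and naive (27.3%). In H1944 the counts were 4 (40.1%), 4 (31.6%) and 5 (56.4%).

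No member passed the test between the reporter gates. Of the 10 members, 0 passed between the high and low gate in each of 4 comparisons. In A549, 0% of all tested genes passed under GSK126 and 0% under TGF-β1 by edgeR, with 986 and 197 genes at an unadjusted p under 0.05 and 0 and 17 by DESeq2. In H1944, 6.93% passed under GSK126 and 0.0587% under TGF-β1. The smallest unadjusted p of a member was 0.0239, for KDM6B in the H1944 TGF-β1 gates (log2 fold change of high minus low 0.31 ± 0.13, adjusted p = 0.906). EZH2 was next at 0.0368, in the H1944 GSK126 gates (-0.23 ± 0.11, adjusted p = 0.195). The ranges of the gates were separate, with the high gate lower, for PHF19 in A549 under TGF-β1 (1 of 10 members, where 10.7% of tested genes had separate ranges), EZH2 in H1944 under GSK126 (1 of 10, against 21.96%) and KDM6A in H1944 under TGF-β1 (1 of 10, against 12.6%). In the A549 GSK126 gates 0 members had separate ranges, against 31.6%.

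The lines were compared by testing the difference of their treatment effects in 1 fit of all 28 libraries. The spread between libraries of a group, as edgeR's common biological coefficient of variation, was 0.0978 for H1944 but 0.358 for A549. Fitting both lines together gave 0.216, below the A549 value and above the H1944 value. How this pooling changed the calls between lines was not tested. With such unequal spread, a call in H1944 alone is by itself no difference between the lines. EZH1, AEBP2 and PHF19 differed in GSK126 against TGF-β1 (3 of 10, where 20.3% of 17918 tested genes did). KDM6A differed in the effect of GSK126 against naive cells (1 of 10, against 9.91%). EZH1, PHF19, KDM6A and KDM6B differed in the effect of TGF-β1 against naive cells (4 of 10, against 20.0%). With the replicate letter as a block these counts were 2, 1 and 2, as EZH1 in the first (adjusted p = 0.0632) and KDM6A (0.0765) and KDM6B (0.0762) in the last lost their calls. The first count was also 2 with RLE scaling and with DESeq2, and 1 with no filter on low counts. The EZH1 difference in GSK126 against TGF-β1 held in 14 of 35 alternatives, the KDM6A difference under TGF-β1 in 17 and the KDM6B difference in 24, and AEBP2 and the KDM6A difference under GSK126 in 32 each. The effect of TGF-β1 on PHF19 was 1.07 ± 0.22 log2 units higher in H1944 than in A549 (edgeR adjusted p = 4.88e-04), and its GSK126 against TGF-β1 difference was 1.14 ± 0.19 lower (log2 -1.14, adjusted p = 3.39e-05). The effect of TGF-β1 on EZH1 was lower in H1944 (log2 -1.23 ± 0.22, adjusted p = 1.02e-04). These 3 differences of PHF19 and EZH1 passed in all 35 alternatives. The joint fit has its own filter and scaling, so its values are not exact differences of the folds per line. The EZH1 difference in GSK126 against TGF-β1 was 0.58, while the fits per line gave 0.58 in H1944 and 0.13 in A549. JARID2 rose by 2.37 in A549 and 2.40 in H1944 under TGF-β1 in the fits per line. For JARID2 the line difference was -0.12 ± 0.21 for TGF-β1 (adjusted p = 0.79) and -0.18 ± 0.22 for GSK126 (adjusted p = 0.703). For EZH2 it was 0.48 ± 0.20 for TGF-β1 (adjusted p = 0.106) and -0.41 ± 0.18 for GSK126 against TGF-β1 (adjusted p = 0.0986).

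Ratios of gene pairs within a library do not depend on the scaling of that library. The 3 pairs were chosen with the members' values known and are no part of the planned tests, so their values are a description, with no test. They put the main against the minor catalytic subunit, KDM6B against KDM6A, and a PRC2.2 subunit against a PRC2.1 subunit.

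The ratio of EZH2 to EZH1 reads in A549 was 3.22 to 5.26 under GSK126, 1.54 to 2.67 under TGF-β1 and 2.32 to 3.904 in naive cells. Folds of these ratios are between geometric means. It was 1.94-fold higher under GSK126 than under TGF-β1, and the ranges did not overlap. In H1944 it was 0.90 to 1.05 in naive cells, 1.65 to 2.82 under GSK126 and 1.63 to 2.68 under TGF-β1. Both treatments lay above the naive range, 2.1-fold for GSK126 and 2.28-fold for TGF-β1, and they overlapped each other. EZH1, the denominator, itself fell under both treatments in H1944. EZH2 was not higher under TGF-β1 than in naive H1944 cells.

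The ratio of KDM6B to KDM6A was 0.219 to 0.600 in naive A549, 0.577 to 0.696 under GSK126 and 1.34 to 3.74 under TGF-β1. It was 8.34-fold higher under TGF-β1 than in naive cells and 4.07-fold lower under GSK126 than under TGF-β1. In H1944 it was 0.250 to 0.411 in naive cells, 0.603 to 0.835 under GSK126 and 1.67 to 2.78 under TGF-β1. The 3 H1944 ranges were separate, with GSK126 1.99-fold above naive and 3.15-fold below TGF-β1. KDM6A, the denominator, itself fell in H1944.

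The ratio of JARID2 to PHF19 was 0.442 to 0.589 in naive A549, 0.688 to 1.15 under GSK126 and 4.40 to 8.28 under TGF-β1. In H1944 it was 0.819 to 0.963 in naive cells, 1.00 to 1.75 under GSK126 and 3.66 to 4.89 under TGF-β1. It was 11.1-fold higher under TGF-β1 than in naive A549 cells and 4.83-fold higher in H1944. PHF19, the denominator, itself fell under TGF-β1 in A549. Against naive cells the GSK126 ratio was 1.63-fold higher in A549 and 1.44-fold higher in H1944, and in both lines the 3 ranges were separate.

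**Figure D3:**
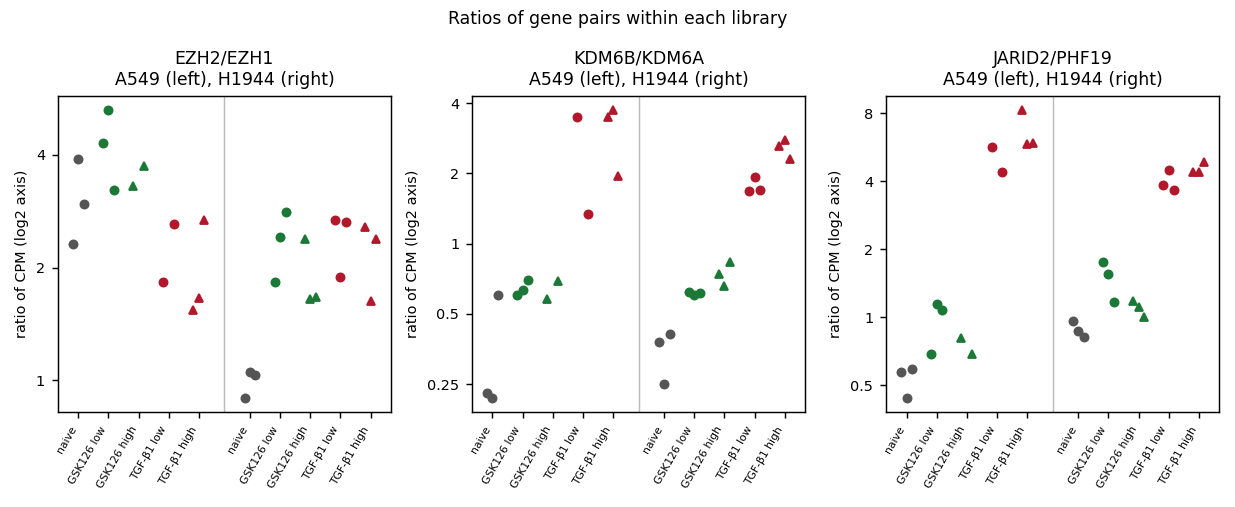
Each panel plots the ratio of the CPM of a gene pair in each library on a log2 axis, with A549 on the left and H1944 on the right of the line, circles for naive and low-gate libraries and triangles for high-gate libraries. In H1944 the EZH2/EZH1 ratio of the 3 naive libraries, 0.90 to 1.05, lies below all treated libraries.

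Levels of different genes were set side by side as RPKM, the CPM divided by the union exon length of the gene in kb. In naive A549 cells SUZ12 was highest at 17.4 ± 2.14 RPKM (SD, n = 3), followed by EZH2 at 15.2 ± 0.544, and KDM6B was lowest at 1.76 ± 0.844. The gap between SUZ12 and EZH2 was close to the SD of SUZ12, and KDM6A, JARID2 and MTF2 (5.40, 5.09 and 5.05 RPKM) lay within their SDs of each other. In naive H1944 cells AEBP2, EZH2 and SUZ12 led at 12.9 ± 0.715, 12.9 ± 1.10 and 12.1 ± 1.87 RPKM, within their SDs of each other, while KDM6B at 3.22 ± 0.834 and EED at 3.53 ± 0.958 were lowest and within their SDs of each other. Under TGF-β1 the order changed at the top, where JARID2 led both lines at 29.7 ± 4.45 RPKM (n = 5) in A549 and 35.2 ± 2.53 RPKM (n = 6) in H1944. KDM6B came next in both lines, at 17.6 ± 5.99 RPKM in A549 and 15.6 ± 2.42 RPKM in H1944. In A549 that KDM6B level and the 15.4 ± 1.74 RPKM of SUZ12 were within their SDs of each other.

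**Figure D4:**
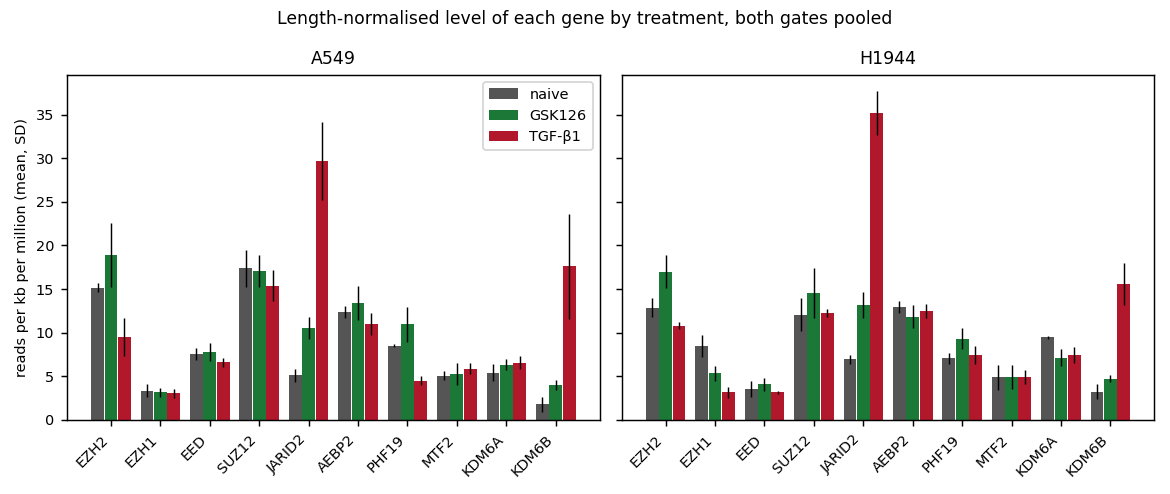
Bars give the mean length-normalised level (RPKM, axis from 0) of each gene in naive, GSK126 and TGF-β1 libraries, with both gates pooled and the SD over libraries as the error bar. JARID2 under TGF-β1 is the tallest bar in both lines, at 29.7 in A549 and 35.2 in H1944.

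Genes around the members were read from lists of their complexes and partners, beside the share of all tested genes that passed between GSK126 and TGF-β1 (19.3% in A549, of which 11.4% higher and 7.93% lower, and 63.8% in H1944, of which 32.1% higher and 31.6% lower). Of 6 tested other PRC2 subunits, EPOP, which binds PRC2.1, was higher under GSK126 than under TGF-β1 in A549 (log2 fold change 1.56 ± 0.36 SE, adjusted p = 0.00423) and in H1944 (1.40 ± 0.17, adjusted p = 7.41e-09). EPOP was the 1 call in A549, and in H1944 RBBP7, a histone chaperone of PRC2, was lower (-0.37 ± 0.08, adjusted p = 6.26e-05). LCORL, named as the next by p-value in A549, stood at 0.27 ± 0.18 (adjusted p = 0.316). Medians of this list were 0.12 in A549 and 0.02 in H1944, beside -0.19 and 0.01 over all genes.

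Of 21 PRC1 genes, which encode the complex that reads H3K27me3 and ubiquitinates histone H2A, 6 were higher and 2 lower under GSK126 than under TGF-β1 in A549 (8 of 21, where 19.3% of all genes passed), and 3 higher and 8 lower in H1944 (11 of 21, where 63.8% passed, so below the share over all genes). PCGF5 (0.94 ± 0.19, adjusted p = 0.00123) and CBX6 (0.91 ± 0.21, adjusted p = 0.00435) were higher in A549. PHC2 (-1.27 ± 0.08, adjusted p = 8.09e-16) and PCGF2 (-1.29 ± 0.11, adjusted p = 4.12e-12) were lower in H1944. Of 9 KMT2C and KMT2D complex partners of KDM6A, WDR5 alone passed in A549 (1.06 ± 0.19, adjusted p = 4.38e-04) and PAXIP1 did not (0.43 ± 0.16, adjusted p = 0.0757). In H1944, 3 of 8 were higher and 2 lower, with PAXIP1 at 0.41 ± 0.10 (adjusted p = 7.15e-04) and KMT2C at -0.42 ± 0.07 (adjusted p = 3.49e-06).

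Other lysine demethylases were lower under GSK126 than under TGF-β1 where they passed. In A549, 4 of 15 were lower and 0 higher, where 7.93% of all genes were lower and 11.4% higher. In H1944, 12 of 15 were lower and 0 higher, where 31.6% were lower and 32.1% higher. The list had medians of -0.19 and -0.51 beside -0.19 and 0.01 over all genes. KDM7A, which acts on H3K9 and H3K27, was lower in A549 (-1.61 ± 0.17, adjusted p = 1.43e-06) and in H1944 (-2.09 ± 0.12, adjusted p = 2.68e-16). KDM3A, an H3K9 demethylase, was lower in A549 (-1.04 ± 0.16, adjusted p = 8.22e-05), and JMJD1C was lower in H1944 (-1.49 ± 0.08, adjusted p = 6.54e-17). Against naive cells, TGF-β1 raised 6 and lowered 0 of the 15 in A549, where 7.67% of all genes were higher and 11.4% lower, and raised 9 and lowered 1 in H1944, where 32.1% were higher and 31.6% lower.

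Of 15 writers and erasers that act against Polycomb, 2 were higher and 0 lower in A549, where 19.3% of all genes passed, and 3 higher and 4 lower (7 of 15) in H1944, where 63.8% passed, so both counts lay below the share over all genes. DOT1L, the H3K79 methyltransferase, was higher under GSK126 than under TGF-β1 in A549 (1.26 ± 0.23, adjusted p = 4.59e-04) and in H1944 (1.11 ± 0.08, adjusted p = 6.52e-14). ARID1A was higher in A549 (0.69 ± 0.22, adjusted p = 0.0307), and ASH1L, which methylates H3K36, was lower in H1944 (-0.45 ± 0.07, adjusted p = 5.10e-07).

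Of 26 proliferation genes, 22 were higher and 0 lower in A549 and 24 higher and 0 lower in H1944 under GSK126 than under TGF-β1, with medians of 1.04 and 0.78. E2F2 (2.77 ± 0.26, adjusted p = 3.14e-07) and CDC20 (1.59 ± 0.17, adjusted p = 2.50e-06) were named in A549, and MCM2 (1.68 ± 0.09, adjusted p = 1.04e-17) and MCM4 (1.08 ± 0.07, adjusted p = 1.65e-15) in H1944. Against naive cells, TGF-β1 lowered 22 of 26 in A549, where 11.4% of all genes were lower. It lowered 18 and raised 2 in H1944, where 31.6% were lower and 32.1% higher. GSK126 raised 1 of 26 in A549 and 13 of 26 in H1944 against naive cells, and lowered 0. Over all genes 3.57% were higher in A549, so that count is near its background, and 21.5% in H1944.

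Of 20 textbook PRC2 target genes, 14 could be tested in A549 and 7 in H1944, since the rest were too low. CDH2, the mesenchymal N-cadherin, was lower under GSK126 than under TGF-β1 in A549 (-1.60 ± 0.19, adjusted p = 7.72e-06) and in H1944 (-3.61 ± 0.09, adjusted p = 5.25e-27). Against naive cells GSK126 raised CDH2 in A549 (0.91 ± 0.22, adjusted p = 0.0167) and in H1944 (3.04 ± 0.17, adjusted p = 1.81e-16). RUNX3 was higher under GSK126 than under TGF-β1 in A549 (2.18 ± 0.34, adjusted p = 1.02e-04), and TBX3 was higher in H1944 (2.30 ± 0.18, adjusted p = 5.00e-13). RUNX3 did not pass between GSK126 and naive A549 cells (0.02 ± 0.34, edgeR adjusted p = 0.982). It fell under TGF-β1 against naive (-2.16 ± 0.35, adjusted p = 1.78e-04). In H1944, TBX3 rose against naive under GSK126 (3.95 ± 0.26, adjusted p = 1.35e-14) and under TGF-β1 (1.65 ± 0.32, adjusted p = 3.76e-05). Against naive cells GSK126 raised 3 and lowered 0 of the 14 in A549, where 3.57% of all genes were higher and 3.20% lower. It raised 4 and lowered 0 of the 7 in H1944, where 21.5% were higher and 18.7% lower. Over GSK126 against TGF-β1, 3 were higher and 2 lower in A549 and 4 higher and 2 lower in H1944.

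The genes most like EZH2 over the 13 A549 libraries, by Pearson r of log2(CPM + 1) among 10950 genes, were MCM8 (0.963), KIF4A (0.95), EXO1 (0.949) and ARHGAP11A (0.947). Over the 15 H1944 libraries, among 11092 genes, they were PDZD8 (0.966), TMEM176B (0.961), GCLC (0.961) and ANXA4 (0.96). The genes most like KDM6B were COL7A1 (0.993), MLXIP (0.987), JARID2 (0.985) and ARFGAP1 (0.985) in A549. In H1944 they were MACF1 (0.99), ZNF362 (0.989), ANKRD11 (0.986) and FRMD6 (0.986). The libraries fall into treatment groups, so these values describe a shared order of the treatments.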

How the data were processed

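RNA of 28 libraries was measured with a stranded low-input total RNA kit, per the labels' protocols. The deposited table gives whole-number read counts for each gene. Per the submitters' processing notes, the tools were bcl2fastq 2.20.0, STAR 2.6.0c (build GRCh38) and HTSeq 0.12.3. The strand setting of the counting, trimming and the gene annotation were not given in the sources used here. Reads were not marked by molecular identifiers in the table, so PCR copies count as reads.

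Of 60487 rows, 60483 were genes and 4 were reporter sequences, which were left out of counts of changed genes. CPM was computed from each library's total, and RPKM from union exon lengths of GENCODE 29, which also gave coordinates (GRCh38). A separate reference of gene names gave symbols for 56321 genes, and GENCODE 29 names were used where it gave none. Tests were edgeR's quasi-likelihood F tests (version 4.0.16, R 4.3.3) with TMM scaling, edgeR's filter on low counts and Benjamini-Hochberg adjustment at 0.05, in 1 fit per line with its 5 groups and in 1 joint fit for differences between lines. Genes tested numbered 19842 in A549, 13621 in H1944 and 17918 for the lines jointly. The fit of GSK126 against TGF-β1 in each line was also run on simulated counts with 1 common spread per line and no gate effect. Its outcome is not given here, and the joint fit was not simulated. Standard errors were derived from the F statistics.

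The 10 members and 7 lists were chosen with earlier results of these data known. Ratios of gene pairs were described with no test, since the pairs were chosen with their values known. Named genes are the members, the 2 list genes of smallest adjusted p between GSK126 and TGF-β1 in each line, and the 4 genes most like EZH2 and KDM6B with a mean of at least 5 CPM. Alternatives were RLE scaling, no filter, DESeq2 1.42.0, the replicate letter as a block, each gate alone, and libraries left out. The letters pair the H1944 GSK126 gates, by correlations of deviations of 0.115, 0.122 and 0.158, as a hint from the data and not the labels. No other pair of groups had all correlations over 0.1 with 3 pairs.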

Additional observations from a re-analysis of the deposited data

Results flagged for a closer look

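Treatment effects of 8 member comparisons differed between the lines by a test of the difference itself (edgeR quasi-likelihood test, adjusted over all genes). Each value is H1944 minus A549 on the log2 scale, from the joint fit. That fit has its own filter and scaling, so a value can differ from the difference of the folds per line. It also pools the spread of the lines, which was wider in A549, and the effect of this on the calls was not tested. For GSK126 against TGF-β1 the difference was 0.58 for EZH1, -0.52 for AEBP2 and -1.14 for PHF19. For GSK126 against naive cells it was -0.70 for KDM6A. For TGF-β1 against naive cells it was -1.23 for EZH1, 1.07 for PHF19, -0.56 for KDM6A and -0.97 for KDM6B. The EZH1 difference of 0.58 held in 14 of 35 alternatives, with adjusted p up to 0.347, and was lost without any 1 of 14 of the 28 libraries (A549 GSK126 low A, low B and high B, TGF-β1 low A, low C and high B and naive A, and H1944 GSK126 low A, low B and high B and TGF-β1 low A, low C, high A and high C). The KDM6A difference under TGF-β1 held in 17 of 35, with adjusted p up to 0.434, and was lost without any 1 of 15 of the 28 libraries (A549 GSK126 high A and low B, TGF-β1 high A and low C and naive A and C, and H1944 GSK126 low A, every naive library and every TGF-β1 library other than low A). The KDM6B difference held in 24 of 35 and was lost without A549 TGF-β1 low A, TGF-β1 high A, naive A or naive B, or H1944 TGF-β1 low A, TGF-β1 high C, naive A or naive C. Without A549 TGF-β1 low A it was -0.63 (adjusted p = 0.185), and without H1944 naive C -0.76 (adjusted p = 0.209). The KDM6B difference was also lost in the low gate alone (adjusted p = 0.165), with the replicate block (0.0762) and without the 2 background-rich A549 libraries (0.0743). The AEBP2 difference held in 32 of 35. It was lost in the low gate alone (adjusted p = 0.46), with no filter (0.131) and without A549 TGF-β1 low A (0.0509). The KDM6A difference under GSK126 held in 32 of 35. It was lost with no filter (adjusted p = 0.218), in the low gate alone (0.164) and without A549 GSK126 high B (0.0676). Both PHF19 differences and the EZH1 difference under TGF-β1 held in all 35.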

How the results depend on the processing

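None of the 33 member calls changed direction under any alternative. With RLE scaling 32 of them kept their call, with DESeq2 31, in the high gate alone 30, with the replicate letter as a block (replicate block) 29, without any filter on low counts 23 and in the low gate alone 22, where fewer libraries are compared. Without the 2 background-rich A549 libraries 15 of 17 kept it. Leaving out 1 library at a time kept 511 of 581 calls. Leaving out the filter shifted the members' log2 fold changes by a median of 0.13 for GSK126 against TGF-β1 and -0.14 for TGF-β1 against naive cells in H1944. The causes of the changes were not tested. The lowest counts of a member in any library were 37 for MTF2, 38 for EED, 40 for KDM6B and 41 for EZH1. For the ratios of gene pairs, libraries were left out as a choice made after seeing the data. In all 177 cases the log2 difference moved by less than the pooled SD within groups. Leaving out 1 library can hardly move a group mean by more than this SD, so the count is no measure of stability.

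Counts of genes past the test moved by more than 1.5 times as follows. In the low gate alone they were 1413 for A549 GSK126 against TGF-β1, 852 for GSK126 against naive, 2383 for TGF-β1 against naive, and, for the line differences, 1383 for GSK126 against TGF-β1 and 1162 for the GSK126 effect. The high gate alone gave 2097 for the first of these differences. For A549 GSK126 against naive, DESeq2 called 2281 genes and leaving out the background-rich libraries gave 2648, against 1344. For the A549 gates, no filter gave 16 under GSK126 and 3 under TGF-β1, DESeq2 17 under TGF-β1, and 53 were called with the background-rich libraries left out. For the H1944 gates, no filter gave 570 and 13. Leaving out 1 library gave 2100 (without GSK126 high B) to 4788 for A549 GSK126 against TGF-β1 and 627 (without GSK126 high B) to 2040 (without TGF-β1 high B) for GSK126 against naive, which also fell to 828 without GSK126 high A and 846 without naive B. It gave 0 to 6 for the A549 TGF-β1 gates (6 without TGF-β1 high B, 3 without naive A, 1 without TGF-β1 low C), 308 to 1374 for the H1944 GSK126 gates (lowest without low B, with 533 without high A and 584 without high C) and 0 to 12 for the H1944 TGF-β1 gates, against 8 (0 without TGF-β1 low A or any high library).

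Members called for A549 GSK126 against naive were 2 with RLE scaling and with DESeq2, and 0 to 2 with 1 library left out (0 without GSK126 high B, 2 without naive C or any 1 TGF-β1 library). For H1944 GSK126 against naive they were 3 with no filter and 3 to 6 with 1 library left out (3 without GSK126 low B or naive A). For the line differences they were 1 with no filter and in the low gate alone for GSK126 against TGF-β1 (1 to 4 with 1 library left out, 1 without A549 TGF-β1 low A). For the GSK126 effect they were 0 with no filter, 0 in the low gate alone and 2 without the background-rich libraries (1 to 2 with 1 library left out, 2 without A549 TGF-β1 high B or naive C or H1944 GSK126 low A, GSK126 high B or naive B). For the TGF-β1 effect they were 2 with the replicate block and 2 in the low gate alone (2 to 5 with 1 library left out, 2 without A549 TGF-β1 high A or naive A or H1944 TGF-β1 high C, naive A or naive C).

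Member differences that had not passed the test changed sign in 56 cases. For A549 GSK126 against TGF-β1, KDM6A was -0.035 with RLE scaling, -0.043 with no filter, -0.035 with DESeq2, -0.13 without the background-rich libraries and -0.14 to 0.10 with 1 library left out. EZH1 was -0.031 to 0.25 and MTF2 -0.35 to 0.098 with 1 library left out. For A549 GSK126 against naive, EED was 0.012 with the replicate block, 0.13 in the high gate alone and -0.15 to 0.10 with 1 library left out. AEBP2 was -0.022 with no filter, -0.097 in the low gate alone and -0.041 to 0.15 with 1 library left out, where SUZ12 was -0.27 to 0.098 and MTF2 -0.37 to 0.15. For A549 TGF-β1 against naive, MTF2 was -0.0020 in the high gate alone and -0.019 to 0.25 with 1 library left out. For H1944 GSK126 against TGF-β1, SUZ12 was -0.048 in the high gate alone and -0.0027 to 0.18 with 1 library left out, and in the low gate alone PHF19 was -0.062 and MTF2 0.11. For H1944 GSK126 against naive, EED was 0.032 with DESeq2, 0.0020 in the low gate alone and -0.13 to 0.34 with 1 library left out, and MTF2 was 0.029 in the low gate alone and -0.31 to 0.020 with 1 library left out. For H1944 TGF-β1 against naive with no filter, SUZ12 was -0.063, AEBP2 -0.12, PHF19 -0.012 and MTF2 -0.095. There AEBP2 was -0.038 in the high gate alone and MTF2 -0.085 in the low gate alone, and with 1 library left out EED was -0.33 to 0.14, SUZ12 -0.060 to 0.17, AEBP2 -0.037 to 0.032 and MTF2 -0.15 to 0.19.

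With the replicate block, the calls lost were KDM6B for H1944 GSK126 against naive (adjusted p = 0.0613) and, between lines, EZH1 for GSK126 against TGF-β1 (0.0632), KDM6A (0.0765) and KDM6B (0.0762) for the TGF-β1 effect, and the block changed no other member call. The block fits 1 effect per letter over all groups of a line. It thus cannot account for a culture shared by only the 2 gates of a treatment. If gates share a culture, averaging them counts that culture in 2 libraries. The effect of such sharing on the calls was not tested. Same-letter correlations of deviations ran from -0.57 to 0.42 in A549 and from -0.16 to 0.18 in H1944, over all pairs of groups. Between the A549 gates they were 0.08 and 0.163 under GSK126 and 0.116 and 0.416 under TGF-β1. Different-letter values there ran from -0.163 to 0.076 and from -0.416 to 0.102. With 2 same-letter pairs per treatment, a shared culture of the A549 gates can be neither shown nor excluded.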
